A study of Mus musculus with 8 samples.

Results

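The genes of glycolysis and of the response to low oxygen were followed in mouse primary microglia, the resident macrophages of the brain, exposed to fragments of Ecrg4, a precursor protein that cells secrete. The group was a list of 35 gene symbols and used no measured value: 20 genes of glycolysis (3 transporters, 14 enzymes and 3 regulators of flux) and 15 genes of the hypoxia response (3 of oxygen sensing and 12 targets of the transcription factor HIF). All 35 were on the array, among 21154 genes with a symbol. In 34 of them a probe exceeded background clearly on both arrays of 1 treatment or more, and these belonged to 19118 genes tested. The exception was Mxi1, a MYC antagonist and HIF target, whose single probe was not well above background on any array.

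Primary microglia of C57BL/6 mice were treated for 3 h with an Fc fusion of Ecrg4 residues 71 to 132, written Ecrg4(71-132), with an Fc fusion of residues 133 to 148, written Ecrg4(133-148), with Fc, or with PBS. Both fusions and Fc were given at 20 µg/ml, and Fc, the constant part of an antibody, is shared by the 3 protein treatments. Total RNA of each sample was labelled with Cy3 and hybridised to 1 one-colour Agilent array, with 2 arrays in each of 4 treatments. Each treatment has an array of set 1 and an array of set 2 in the labels, which do not say whether a set was its own culture or animal. The p-values therefore measure only the spread between these samples, which may be technical.

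Glycolysis splits glucose into pyruvate, which lactate dehydrogenase turns into lactate for export. HIF-1 is a dimer of an oxygen-regulated alpha subunit and ARNT. The alpha subunit is degraded after hydroxylation by the EGLN prolyl hydroxylases when oxygen is present. Otherwise HIF-1 drives genes of glucose uptake, glycolysis, vessel growth and mitochondrial turnover. In macrophages and microglia, inflammatory stimuli are known to raise glucose uptake, glycolysis and Hif1a mRNA without a loss of oxygen. The core letters bound by HIF are ACGTG or GCGTG.

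The 250 bases before the start of 5 of the genes are printed here because these genes carry the larger treatment or set differences described below: Slc2a1 and Hk2 at the entry to glycolysis, Hif1a itself, and the HIF targets Adm and P4ha2. They are written 5′ to 3′ along the gene's own strand, from RefSeq on GRCm38.p6, and the capitals mark ACGTG and GCGTG, or CACGT and CACGC where the match lies on the opposite strand. In Hif1a a match on each strand overlaps in CACGTG.
Slc2a1 (chr4:119108495-119108744, plus strand): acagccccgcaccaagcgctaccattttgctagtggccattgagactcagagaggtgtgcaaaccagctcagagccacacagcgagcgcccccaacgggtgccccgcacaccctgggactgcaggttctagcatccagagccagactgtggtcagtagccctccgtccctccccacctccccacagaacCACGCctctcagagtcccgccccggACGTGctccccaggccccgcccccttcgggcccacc
Hk2 (chr6:82774455-82774704, minus strand): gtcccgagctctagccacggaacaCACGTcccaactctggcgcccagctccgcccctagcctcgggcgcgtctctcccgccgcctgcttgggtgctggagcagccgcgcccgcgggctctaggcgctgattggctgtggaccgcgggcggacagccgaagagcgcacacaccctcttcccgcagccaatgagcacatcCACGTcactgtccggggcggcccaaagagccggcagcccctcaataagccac
Hif1a (chr12:73907617-73907866, plus strand): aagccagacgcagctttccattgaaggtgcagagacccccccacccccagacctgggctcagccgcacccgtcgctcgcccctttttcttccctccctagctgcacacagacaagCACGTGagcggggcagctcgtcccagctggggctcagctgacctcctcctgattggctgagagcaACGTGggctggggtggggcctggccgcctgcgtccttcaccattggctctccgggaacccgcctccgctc
Adm (chr7:110627407-110627656, plus strand): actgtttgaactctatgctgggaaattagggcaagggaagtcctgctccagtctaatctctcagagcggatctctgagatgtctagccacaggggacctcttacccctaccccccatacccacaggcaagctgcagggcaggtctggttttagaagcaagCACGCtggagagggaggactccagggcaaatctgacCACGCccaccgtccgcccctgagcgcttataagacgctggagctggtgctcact
P4ha2 (chr11:54100674-54100923, plus strand): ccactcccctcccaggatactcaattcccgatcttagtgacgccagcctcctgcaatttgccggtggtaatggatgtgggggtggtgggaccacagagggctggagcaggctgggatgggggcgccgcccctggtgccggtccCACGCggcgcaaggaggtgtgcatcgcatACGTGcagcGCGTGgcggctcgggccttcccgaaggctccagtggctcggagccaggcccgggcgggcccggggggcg

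The matches began 61 and 36 bases before the start of Slc2a1, 226 and 52 before Hk2, 135, 134 and 70 before Hif1a, 90 and 54 before Adm and 107, 78 and 69 before P4ha2. Promoters were given for 34 of the 35 genes (not for Ndrg1), in 51 windows of the same length. At least 1 match lay in 40 of the 51 windows (78.4%), against 12679 of 32851 windows of all genes (38.6%). The median content of G and C was 62.8% in the windows of these genes and 52.4% in all windows, and its part in the share of matches was not tested. By gene, 32 of 34 had a match (94.1%, against 41.5% of 27025 genes with a promoter) and Gpi1 and Tpi1 had none. These are matches of letters, not measured binding sites.

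Values below are normalized log2 signals, the log2 spot intensity minus the 75th percentile of its array, so that 1 unit is 2-fold and 0 is that percentile. Signals of different genes come from different probes and are not set against each other. The 75th percentile ran from 494.7 to 809.4 in intensity, 24213 to 29434 probes were well above background, and no spot was saturated. Correlations across genes were 0.953 to 0.962 between the arrays of a treatment, below those among the arrays of set 1 (0.994 to 0.997) or of set 2 (from 0.975). Of the microglia markers, Csf1r ran from 7.90 to 8.17 and Trem2 from 7.04 to 7.57 over the 8 arrays. The homeostatic markers Cx3cr1 and Fcrls had 4.59 to 4.71 and 3.57 to 3.68 as their ranges in set 1, against -3.25 to -0.73 and -0.56 to -0.29 in set 2. Each set filled its own column of 1 slide, so set and slide column cannot be told apart. In bulk RNA, fewer cells of a type and less RNA per cell cannot be told apart.

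Under Ecrg4(71-132), the transporter and first-step genes Slc2a1 and Hk2, the regulator Hif1a, its hydroxylase Egln3 and the HIF target Adm had signals 1.48 to 2.31-fold those under Fc as means over both sets, while most of the glycolytic enzymes differed by much less. No member passed the threshold, an adjusted p of 0.05 in limma with Benjamini-Hochberg adjustment over all genes tested. The same direction in both sets is therefore given as a count beside the same count over all genes. Unless stated, standard errors and intervals of treatment differences came from the fit without the set, so they include the offset between the sets. No interval is adjusted for the number of genes tested.

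**Figure D1:**
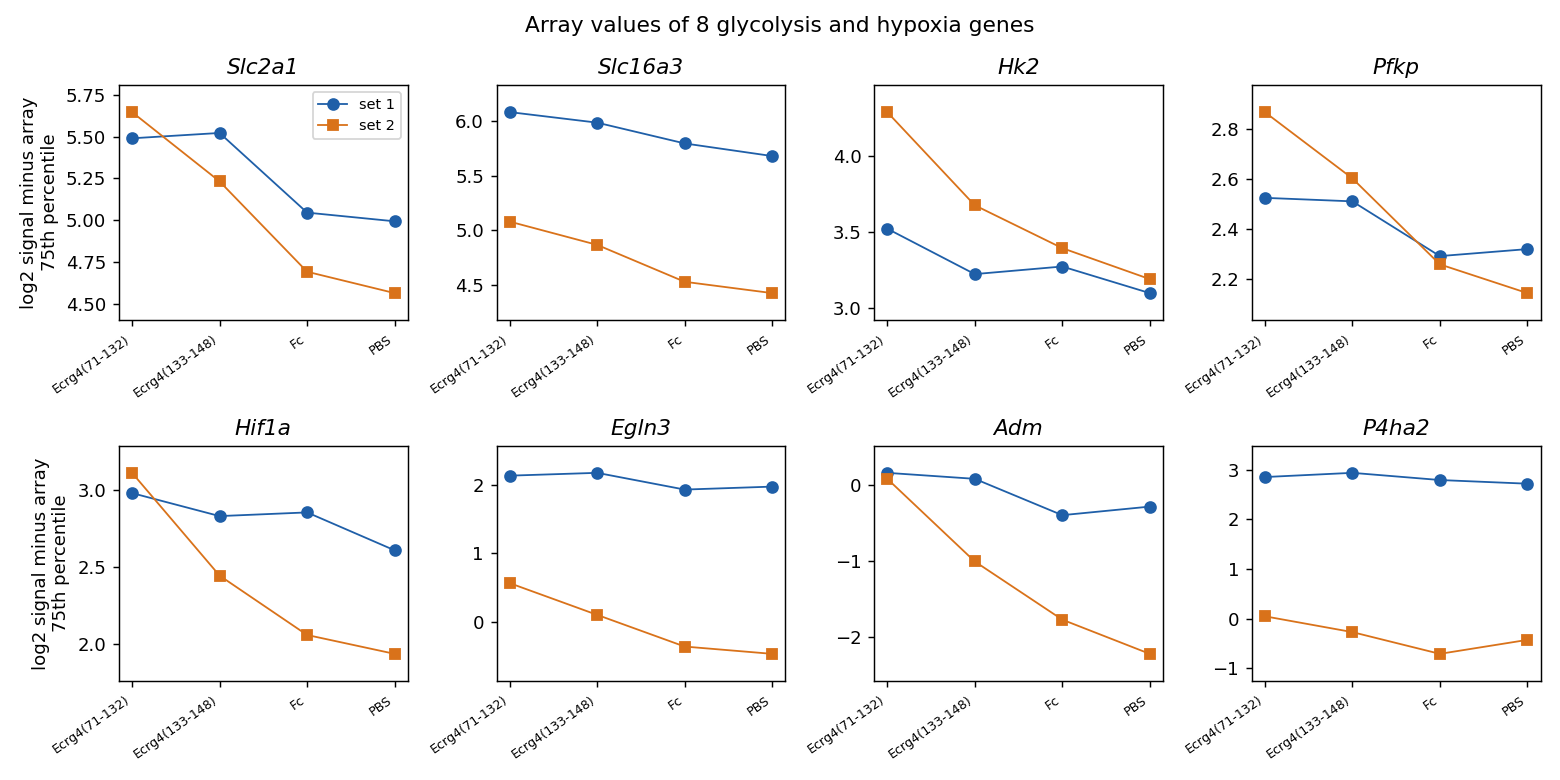
Normalized log2 signal (log2 intensity minus the array's 75th percentile) of 8 genes on each array; circles are set 1, squares are set 2, and lines join the arrays of a set. In set 2, Slc2a1, Slc16a3, Hk2, Pfkp, Hif1a, Egln3 and Adm ran downwards from Ecrg4(71-132) over Ecrg4(133-148) and Fc to PBS. In set 1, of these genes only Slc16a3 did so. The genes drawn were picked for large differences or after their values were seen, and each point is 1 array. How many of all genes have this order was not counted. In set 2 P4ha2 was lowest under Fc, and it lay far higher in set 1 than in set 2.

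Slc2a1 encodes GLUT1, the main glucose importer of microglia and macrophages. Its signals in sets 1 and 2 were 5.49 and 5.65 under Ecrg4(71-132), 5.52 and 5.23 under Ecrg4(133-148), 5.04 and 4.69 under Fc and 4.99 and 4.56 under PBS. All 4 fragment arrays lay above all 4 control arrays. Ecrg4(71-132) minus Fc was 0.70 ± 0.23 (SE, n = 2 each; 95% interval 0.13 to 1.27), 0.45 in set 1 and 0.96 in set 2, with an adjusted p of 1 in limma and of 0.207 with the set as a block. With that block the 95% interval was 0.275 to 1.125.

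Slc16a3 encodes MCT4, the lactate exporter of highly glycolytic cells. It was at 6.08 and 5.08 under Ecrg4(71-132), 5.99 and 4.86 under Ecrg4(133-148), 5.80 and 4.52 under Fc and 5.68 and 4.42 under PBS in sets 1 and 2. Within each set both fragments were above both controls, but every array of set 1 lay above every array of set 2. Its second probe gave a like difference of Ecrg4(71-132) from Fc, 0.32 and 0.58 in sets 1 and 2, beside 0.29 and 0.55 for the brighter probe.

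Slc16a1 encodes MCT1, which moves lactate either way. Its signals were -2.47 and -2.29 under Ecrg4(71-132), -2.63 and -2.15 under Ecrg4(133-148), -2.74 and -1.95 under Fc and -2.52 and -2.20 under PBS. It was higher under Ecrg4(71-132) than under Fc by 0.27 in set 1 and differed by -0.34 in set 2, so the sets ran opposite ways.

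Among the 14 enzymes the difference of Ecrg4(71-132) from Fc had a median of 0.08 and ran from -0.11 for Pfkm to 0.57 for Hk2. Hk2, the inducible hexokinase that phosphorylates glucose at the mitochondrial surface, was at 3.52 and 4.29 under Ecrg4(71-132), 3.23 and 3.68 under Ecrg4(133-148), 3.28 and 3.40 under Fc and 3.10 and 3.19 under PBS. In set 2 both fragments lay above both controls, and in set 1 Ecrg4(133-148) lay below Fc. Hk1, the constitutive hexokinase, differed by 0.10 in set 1 and -0.28 in set 2.

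Phosphofructokinase commits sugar to glycolysis, and its 3 subunit genes differed in direction. Pfkp, the platelet-type subunit, was at 2.53 and 2.87 under Ecrg4(71-132), 2.51 and 2.60 under Ecrg4(133-148), 2.29 and 2.26 under Fc and 2.32 and 2.14 under PBS, with all fragment arrays above all control arrays. Its second probe differed by 0.20 in set 1 and 0.02 in set 2, against 0.23 and 0.61 for the brighter one. Pfkl, the liver-type subunit, differed by 0.02 in set 1 and 0.52 in set 2.

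Pfkm, the muscle-type subunit, was at 0.86 and 0.08 under Ecrg4(71-132), 0.74 and 0.12 under Ecrg4(133-148), 0.86 and 0.30 under Fc and 1.14 and 0.36 under PBS. It was the single member at which both fragments lay below both controls in each set, although Ecrg4(71-132) and Fc differed by only -0.001 in set 1.

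The later enzymes moved little. Tpi1 (triosephosphate isomerase), Pgk1 (phosphoglycerate kinase), Pgam1 (phosphoglycerate mutase) and Pkm (pyruvate kinase) were higher under Ecrg4(71-132) than under Fc in both sets, by 0.06 to 0.19. Gpi1, Aldoa, Gapdh, Eno1 and Ldha, which encode the isomerase, aldolase, glyceraldehyde phosphate dehydrogenase, enolase and lactate dehydrogenase of the pathway, were higher in set 1 by 0.10 to 0.30 and lower in set 2, at -0.26 to -0.01.

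For Ldha and Gapdh the choice of probe mattered. The 2 dimmer probes of Ldha gave 0.16 and 0.22 in set 1 and 0.16 and 0.28 in set 2, against 0.30 and -0.16 for the brightest. Of the 7 probes of Gapdh, 5 of the 6 dimmer ones were above 0 in both sets, at 0.09 to 0.18 in set 1 and 0.02 to 0.16 in set 2, and the brightest gave 0.23 and -0.26.

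The regulators of flux did not go the way of Slc2a1 and Hk2. Pfkfb3 makes fructose 2,6-bisphosphate, the activator of phosphofructokinase, and was at 2.48 and 2.15 under Ecrg4(71-132), 2.44 and 2.15 under Ecrg4(133-148), 2.34 and 2.21 under Fc and 2.47 and 2.40 under PBS. Its dimmer probe, well above background on 7 of 8 arrays, disagreed, with Ecrg4(71-132) above Fc by 0.36 in set 1 and 0.84 in set 2.

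Pdk1 encodes the kinase that keeps pyruvate out of the mitochondrial cycle. It was at 1.71 and 1.32 under Ecrg4(71-132), 1.81 and 1.57 under Ecrg4(133-148), 1.82 and 1.60 under Fc and 1.77 and 1.78 under PBS, lowest under Ecrg4(71-132) in each set. Pfkfb4, a relative of Pfkfb3, was lower under Ecrg4(71-132) than under Fc as well, at -0.17 and -0.22 in sets 1 and 2. Its second probe was not well above background on any array.

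All 3 genes of oxygen sensing were higher under Ecrg4(71-132) than under Fc in both sets. Hif1a, the oxygen-regulated subunit of HIF-1, was at 2.98 and 3.11 under Ecrg4(71-132), 2.83 and 2.44 under Ecrg4(133-148), 2.86 and 2.06 under Fc and 2.61 and 1.93 under PBS. The difference of Ecrg4(71-132) from Fc was 0.59 ± 0.36 (SE, n = 2 each; 95% interval -0.32 to 1.50), 0.13 in set 1 and 1.06 in set 2, with an adjusted p of 1 in limma and of 0.286 with the set as a block. With that block the 95% interval was -0.05 to 1.233. In set 1 Ecrg4(133-148) did not exceed Fc.

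Egln3, a hydroxylase that is itself a HIF target, was at 2.13 and 0.57 under Ecrg4(71-132), 2.17 and 0.11 under Ecrg4(133-148), 1.93 and -0.35 under Fc and 1.97 and -0.46 under PBS. Both fragments were above both controls in each set, and its 2 probes gave like differences of Ecrg4(71-132) from Fc, 0.20 and 0.26 in set 1 and 0.92 and 0.93 in set 2. Egln1, the main oxygen sensor, differed by 0.17 in set 1 and 0.40 in set 2.

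Of the 11 measured HIF targets, Adm differed most. Adm encodes adrenomedullin, a secreted vasodilator peptide. It was at 0.16 and 0.09 under Ecrg4(71-132), 0.09 and -1.003 under Ecrg4(133-148), -0.39 and -1.77 under Fc and -0.28 and -2.22 under PBS. Within each set both fragments lay above both controls. Ecrg4(71-132) minus Fc was 1.21 ± 0.81 (SE, n = 2 each; 95% interval -0.82 to 3.24), which is 1.47-fold in set 1 and 3.62-fold in set 2, with an adjusted p of 1 in limma and of 0.265 with the set as a block. With that block the 95% interval was 0.021 to 2.395.

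The other targets differed less. P4ha2, a collagen prolyl hydroxylase subunit, differed by 0.06 in set 1 and 0.76 in set 2. Ndrg1, a stress-induced gene, differed by 0.47 and 0.21. Higd1a, a mitochondrial survival factor, differed by 0.11 and 0.27, and its 2 probes gave the same direction.

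Ankrd37 (an ankyrin repeat protein), P4ha1 (the sister subunit of P4ha2) and Ddit4 (REDD1, an inhibitor of mTORC1) were higher under Ecrg4(71-132) than under Fc by 0.03 to 0.11 in both sets. Bnip3, which directs mitochondria to autophagy, was lower by a like small size in both on its brightest probe, -0.033 and -0.029. Its next brightest probe gave -0.067 and 0.02 in sets 1 and 2, and its dimmest -0.013 and -0.185. The histone demethylase gene Kdm3a differed by -0.16 in set 1 and 0.13 in set 2.

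Plin2, which coats lipid droplets, was at 7.22 and 7.22 under Ecrg4(71-132), 7.40 and 7.59 under Ecrg4(133-148), 7.17 and 7.64 under Fc and 7.20 and 7.72 under PBS. Its difference of Ecrg4(71-132) from Fc was 0.05 in set 1 and -0.42 in set 2. Vegfa, the vessel growth factor, differed by 0.03 in set 1 and -0.18 in set 2, and by 0.27 and -0.07 on its dimmer probe.

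Taken by count, 19 of 34 members were higher under Ecrg4(71-132) than under Fc in both sets, where 28.5% of all genes were, and 4 (Pfkm, Pfkfb4, Pdk1 and Bnip3) were lower in both, where 36.4% of all genes were. The 19 were 9 of 20 glycolysis genes and 10 of 14 hypoxia genes. The median difference was 0.07 over the glycolysis genes, 0.15 over the hypoxia genes and -0.02 over all genes. Within the sets it was 0.15 and -0.03 for glycolysis and 0.10 and 0.17 for hypoxia in sets 1 and 2. No member exceeded 2-fold in both sets (0.732% of all genes did).

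At an unadjusted p of 0.05, limma held Slc2a1 and Pfkp, 2 of 34, where 3.37% of all genes passed. With the set as a block it held 5 (Slc2a1, Slc16a3, Hk2, Pfkp and Adm), where 18.6% of all genes passed. After adjustment none of the genes tested passed in either fit (0% in both). Leaving out the set 1 array of Ecrg4(71-132) turned the hypoxia median to -0.05 and the glycolysis median to -0.003, and leaving out an Fc array gave a hypoxia median of 0.29 without set 1 and 0.02 without set 2; in such a fit the arrays left in the groups come from different sets.

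**Figure D2:**
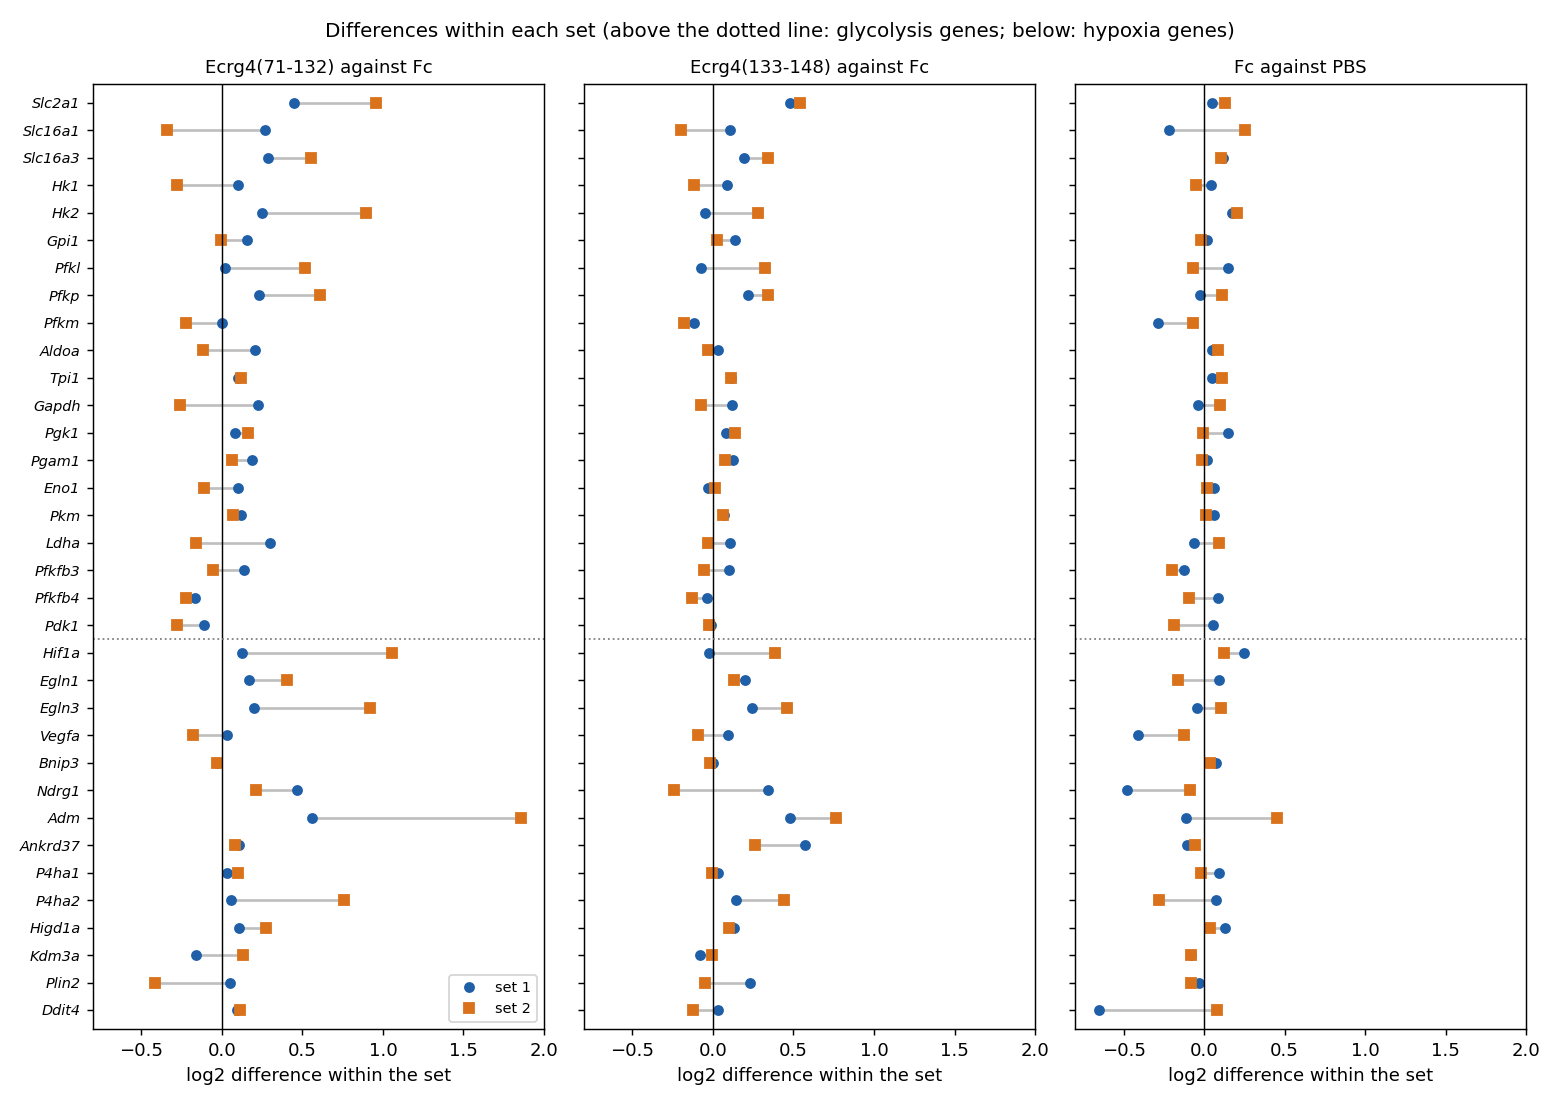
Log2 difference within set 1 (circles) and set 2 (squares) for each of the 34 genes, for Ecrg4(71-132) against Fc, Ecrg4(133-148) against Fc and Fc against PBS; grey lines join the sets, and the dotted line parts glycolysis genes (above) from hypoxia genes (below). The Ecrg4(71-132) differences of Slc2a1, Hk2, Hif1a, Egln3 and Adm lie right of 0 in both sets and farther right in set 2.

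Ecrg4(133-148) was compared with the same Fc arrays, so these differences share their controls with those above. Slc2a1 was higher by 0.51 ± 0.23 (SE, n = 2 each; 0.48 and 0.54 in sets 1 and 2), Adm by 0.62 ± 0.81 (0.48 and 0.77) and Ankrd37 by 0.42 ± 0.77 (0.57 and 0.26), each with an adjusted p of 1 in limma and of 0.836 to 0.844 with the set as a block. With that block the SE was 0.161 for Slc2a1 (interval 0.084 to 0.934), 0.45 for Adm (-0.564 to 1.81) and 0.101 for Ankrd37 (0.151 to 0.682). Hk2 differed by -0.05 in set 1 and 0.28 in set 2, and Hif1a by -0.02 and 0.39. The count higher in both sets was 14 of 34 (8 glycolysis and 6 hypoxia genes), where 28.5% of all genes were, and 4 (Pfkm, Pfkfb4, Pdk1 and Kdm3a) were lower in both, where 30.6% were.

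The median was 0.05 over the glycolysis genes, 0.10 over the hypoxia genes and -0.004 over all genes. The hypoxia median was -0.08 without the set 1 array of Ecrg4(133-148) and -0.17 without the set 2 array of Fc. No gene of the 19118 passed after adjustment in either fit (0%). At an unadjusted p of 0.05 no member passed without the block (0.46% of all genes did) and 3 passed with it, Slc2a1, Slc16a3 and Ankrd37 (5.26% of all genes did). No member exceeded 2-fold in both sets (0.0785% of all genes did).

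The fragments were then set against each other. Members higher under Ecrg4(71-132) than under Ecrg4(133-148) in both sets numbered 12 (23.7% of all genes), among them Hk2 at 0.30 and 0.61 and Hif1a at 0.15 and 0.67 in sets 1 and 2. Members lower in both numbered 6 (33.5% of all genes), and Ankrd37 was the lowest at -0.33 ± 0.77 (SE, n = 2 each; -0.47 and -0.18). With the set as a block the SE of this Ankrd37 difference was 0.101, with an interval of -0.59 to -0.059. Adm differed by 0.08 in set 1 and 1.09 in set 2, and Slc2a1 by -0.03 and 0.42.

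These differences did not pass the test. For Slc2a1 the 95% interval of the difference between the fragments was -0.38 to 0.76, for Hk2 -0.29 to 1.21, for Hif1a -0.50 to 1.32 and for Adm -1.45 to 2.61. The adjusted p was 1 for each in limma, and 0.714 to 0.764 with the set as a block. With that block the intervals were -0.234 to 0.616 for Slc2a1, -0.047 to 0.959 for Hk2, -0.232 to 1.052 for Hif1a and -0.603 to 1.772 for Adm. Across all genes none passed after adjustment in either fit (0%); at an unadjusted p of 0.05, no member passed (0.738% of all genes did), or Ankrd37 alone with the block (6.34%), and none was over 2-fold in both sets (0.549%). The hypoxia median, 0.10, was -0.02 without the set 1 array of Ecrg4(71-132) and -0.10 without the set 2 array of Ecrg4(133-148), and the glycolysis median, 0.02, was -0.04 without that array of Ecrg4(71-132).

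Fc itself was compared with PBS. The Vegfa difference was -0.27 ± 0.17 (SE, n = 2 each; -0.41 and -0.12 in sets 1 and 2; adjusted p = 1 in limma with and without the block), and that of Hk2 was 0.19 (0.17 and 0.20). Members higher in both sets numbered 10 (39.6% of all genes) and lower in both 7 (16.7% of all genes), of which 5 were hypoxia genes: Vegfa, Ndrg1, Ankrd37, Kdm3a and Plin2. Ddit4 differed by -0.65 in set 1 and 0.08 in set 2, and its PBS array of set 1, at 2.67, lay above the other arrays of that set, at 2.02 to 2.11. No gene passed after adjustment in either fit (0%). At an unadjusted p of 0.05 no member passed without the block (0.267% of all genes did) and Vegfa passed with it (1.86%).

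The medians were 0.03 over the glycolysis genes, -0.05 over the hypoxia genes and 0.03 over all genes. The hypoxia median was 0.26 without the set 1 array of PBS and 0.09 without the set 2 array of Fc, and the glycolysis median was -0.01 under quantile normalization, which also left 3 members higher in both sets.

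Against PBS, which shares its arrays with the comparison of Fc, Ecrg4(71-132) was higher in both sets for 18 members (34.3% of all genes) and lower in both for 4 (31.5%), and Ecrg4(133-148) for 21 (36.3%) and 6 (23.8%). Slc2a1 was higher by 0.79 under Ecrg4(71-132), with an adjusted p of 0.926 in limma and 0.133 with the set as a block, and by 0.60 under Ecrg4(133-148), with 1 and 0.538. Vegfa was lower in both sets under both fragments, at -0.38 and -0.30 under Ecrg4(71-132) and -0.32 and -0.22 under Ecrg4(133-148) in sets 1 and 2. On its dimmer probe the direction was the same but the sizes differed. That probe was at -1.40 and -1.23 under Ecrg4(71-132) and -1.51 and -0.48 under Ecrg4(133-148). Its Fc signals were -1.67 and -1.15, and its PBS signals -1.28 and -0.097.

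After adjustment no gene passed against PBS for either fragment in either fit (0%). At an unadjusted p of 0.05, 3 members passed for Ecrg4(71-132), Slc2a1, Hk2 and Pfkp (4.87% of all genes did), and 12 with the block (23.7%). For Ecrg4(133-148), Slc2a1 passed (0.973%), and 7 members with the block (9.15%).

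Taken over all 4 treatments, both fragments lay above both controls for 20 of 34 members in set 1 (29.8% of all genes), for 15 in set 2 (27.7%) and for 12 in both sets (14.9%). The 12 were the transporters Slc2a1 and Slc16a3, the enzymes Pfkp, Tpi1, Pgk1, Pgam1 and Pkm, and the hypoxia genes Egln3, Adm, Ankrd37, P4ha2 and Higd1a. Hk2, Pfkl and Hif1a did so in set 2 and not in set 1. Both fragments lay below both controls in both sets for Pfkm (12.1% of all genes).

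Markers of astrocytes did not move one way over all the treatments. Under Ecrg4(71-132) against Fc their median difference was 0.45, 0.45 in set 1 and 0.81 in set 2. In that comparison 4 of the 7 were higher in both sets and 0 lower in both (28.5% and 36.4% of all genes). The 4 (Aqp4, Slc1a3, Slc1a2 and S100b) were each well above background on only 1 or 2 arrays of set 2. Their Fc signals there, -5.997 to -4.228, lay under the lowest signal well above background on that array (-3.719). Aqp4, Slc1a3 and S100b passed the filter only through a fragment treatment. The count and the medians are therefore not read as a change of these cells. Against PBS the median was -0.13, with 0 higher in both sets and 2 lower in both (34.3% and 31.5% of all genes). The mean signal of 7 measured astrocyte markers in sets 1 and 2 was 0.98 and -1.49 under Ecrg4(71-132), 0.62 and -1.54 under Ecrg4(133-148), 0.63 and -2.36 under Fc and 1.45 and -2.25 under PBS. In set 2 both fragments lay above Fc and PBS for 3 of the 7 (Aqp4, Slc1a3 and S100b), none of them well above background on more than 2 of the 4 arrays. They lay below Fc and PBS for Aldh1l1 and Aldoc, which alone among the 7 were well above background on all 4. The part of these cells in the results was not tested.

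The sets differed far more than the treatments for many of these genes. In this comparison n counts the 4 arrays of a set, 1 of each treatment, so its p-values measure only the spread between arrays. Set 1 exceeded set 2, over all 4 treatments, for 12 members that passed the test (22.8% of all genes passed in this direction) and was lower for 4 (36.4%). Of the 12, 7 were among the 14 hypoxia genes and 5 among the 20 glycolysis genes. The median difference, set 1 minus set 2, was 0.43 over the hypoxia genes, 0.02 over the glycolysis genes and -0.11 over all genes.

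P4ha2 stood apart most. In set 1 it was at 2.85 under Ecrg4(71-132), 2.94 under Ecrg4(133-148), 2.79 under Fc and 2.72 under PBS, and in set 2 at 0.05, -0.27, -0.71 and -0.43 in the same order. Its lowest array of set 1 lay far above its highest array of set 2, and the difference was 3.17 ± 0.12 (SE, n = 4 each; adjusted p = 0.000155 in limma), or 8.99-fold.

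Egln3 was higher in set 1 by 2.08 ± 0.16 (adjusted p = 0.000714 in limma), Ankrd37 by 1.23 ± 0.07 (0.000362), Slc16a3 by 1.17 ± 0.07 (0.00033) and Ndrg1 by 1.01 ± 0.11 (0.00175). Pfkl, Tpi1 and Pfkm were higher in set 1 by 0.69 to 0.81 and Bnip3 by 0.43, each with an adjusted p of 0.00248 or less in limma. Pfkfb4 went the other way: its signals under Ecrg4(71-132), Ecrg4(133-148), Fc and PBS were 2.76, 2.89, 2.92 and 2.84 in set 1, against 4.26, 4.35, 4.48 and 4.58 in set 2, a difference of -1.56 ± 0.06 (SE, n = 4 each; adjusted p = 0.000171 in limma). Pgam1 was lower in set 1 as well, at -0.35 (adjusted p = 0.00386 in limma).

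Those calls, 11 in number, held in every alternative run. The calls of Ddit4 (0.62, adjusted p = 0.0213 in limma), Adm (1.12, 0.035), Pfkfb3 (0.21, 0.0469), Slc16a1 (-0.44, 0.026) and P4ha1 (-0.20, 0.0231) were lost when some arrays were left out. Leaving out either array of a treatment gave the same set fit, because the array left in that treatment says nothing about the set. Ddit4 lost its call without an array of Ecrg4(133-148). Adm and Slc16a1 kept theirs only without an array of Ecrg4(71-132), and Pfkfb3 and P4ha1 lost theirs in each such fit. The call of Slc16a1 was also lost under quantile normalization, those of Adm and Pfkfb3 with no filter on dim probes, and that of P4ha1 with no filter, under normexp and with the mean of its probes.

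The enzyme genes Aldoa, Gapdh, Eno1, Pkm and Ldha did not pass, at -0.27 to 0.12. Under quantile normalization the glycolysis median was 0.17 and under normexp 0.07, against 0.02.

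**Figure D3:**
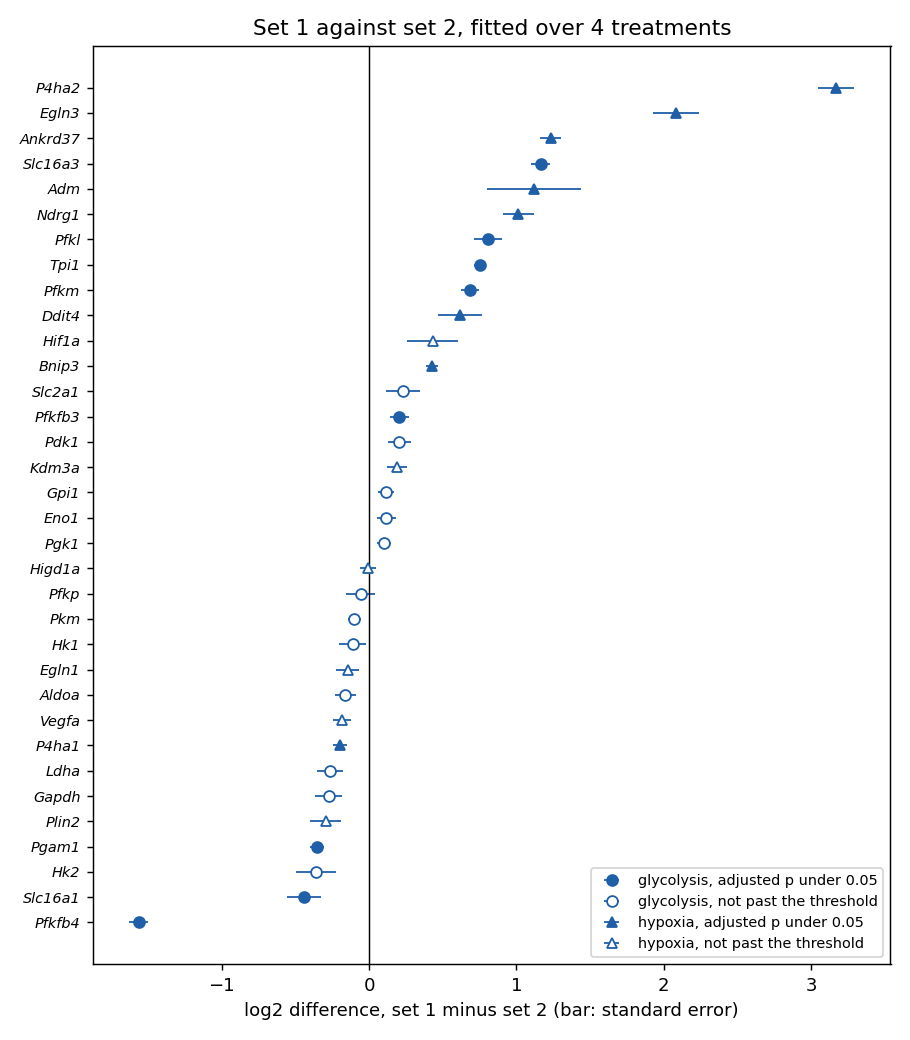
Log2 difference, set 1 minus set 2, for each of the 34 genes from a fit with treatment and set (bars are standard errors; circles are glycolysis genes, triangles hypoxia genes; filled symbols have an adjusted p under 0.05). P4ha2 at 3.17 and Egln3 at 2.08 lie at the high end and Pfkfb4 at -1.56 at the low end.

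Cell type markers differed between the sets as well, not all one way. The 3 measured fibroblast markers of 6, Col1a1, Col1a2 and Dcn, had a mean of 2.71 to 3.82 in set 1 and -3.52 to -2.80 in set 2, where only Col1a2 was well above background on all 4 arrays. The 7 measured astrocyte markers of 8 had a mean of 0.62 to 1.45 in set 1 and -2.36 to -1.49 in set 2, with 5 called higher and 2 called lower in set 1 in limma. Those lower in set 1 were Aldh1l1 (2.33 to 2.97 in set 1, 3.59 to 3.83 in set 2) and Aldoc (4.28 to 4.58 and 5.91 to 5.97). The 5 higher ones were each well above background on all 4 arrays of set 1 and on 1 or 2 arrays of set 2. Gfap, the defining astrocyte filament, was at 1.11 to 2.44 in set 1 and not well above background on 3 of the 4 arrays of set 2. The 6 oligodendrocyte lineage markers had a mean of 1.16 to 1.25 in set 1 and 0.78 to 1.003 in set 2. Of these, 2 were called higher and 3 lower in set 1 in limma. The 2 measured endothelial markers of 4 had a mean of -1.19 to -0.97 in set 1 and -0.21 to -0.16 in set 2. Set 1 minus set 2 was -1.78 for Flt1 but only -0.07 for Pecam1. Of 5 neuron markers only Snap25 was measured. The 10 microglia markers had a mean of 4.25 to 4.34 in set 1 and 2.34 to 2.49 in set 2, with 7 called higher and 2 called lower in set 1 in limma. Cx3cr1 and Fcrls had the largest differences of the 10 (6.62 and 4.04), Csf1r was called in neither direction (0.01), and Itgam (-0.66) and Trem2 (-0.37) were lower in set 1. The part of these cells in the set differences was not tested.

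The variation over the 8 arrays was divided into treatment, set and remainder, as shares of each gene's sum of squares. The set held a median of 61.1% and treatment 11.7% over the 34 members, against 65.9% and 17.8% over all genes. The remainder held a median of 13.3% over the members, more than treatment, and 9.59% over all genes. The shares were not adjusted for there being more treatments than sets. Treatment held more than the set for Higd1a (88.0%), Slc2a1 (80.9%), Pfkp (79.1%), Pgk1 (66.8%) and Hk2 (60.7%). It also did for Vegfa (60.2%), Egln1 (55.9%), Hif1a (51.1%) and Pkm (48.5%, against 45.4% for the set). The set held 98.8% for Bnip3, 98.5% for Pfkfb4 and 98.4% for P4ha2. For how many of all genes treatment held more than the set was not counted, so this is not read as particular to the list.

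**Figure D4:**
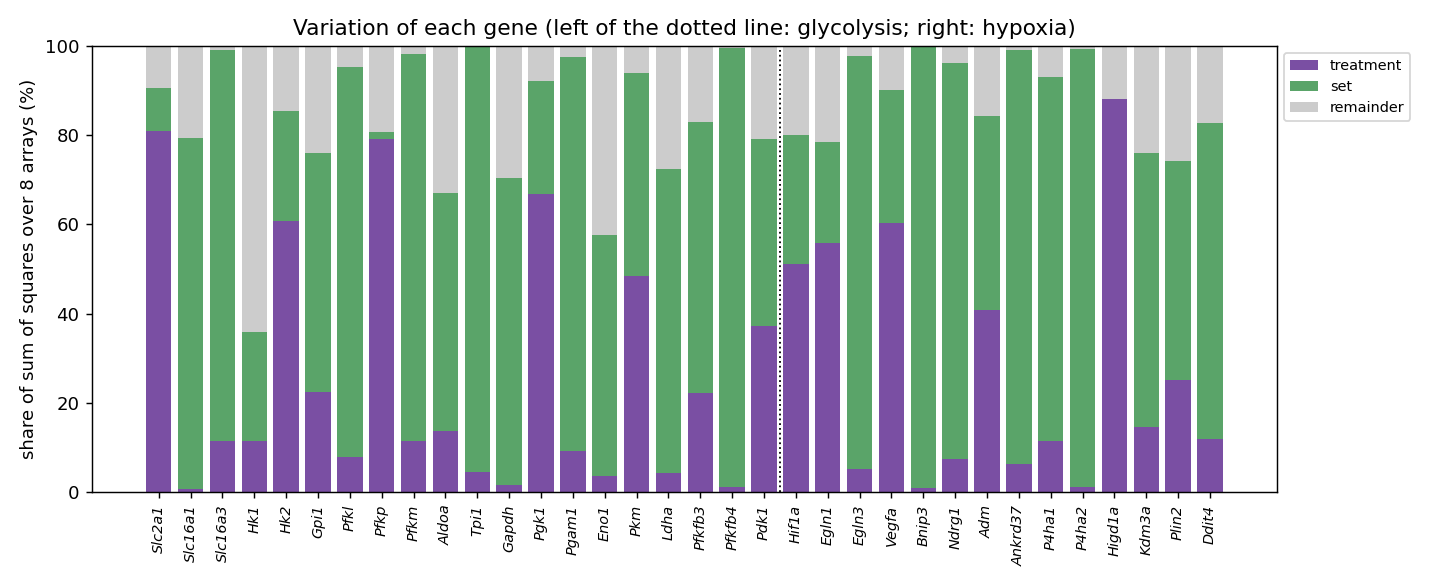
Share (%) of each gene's sum of squares over 8 arrays held by treatment, set and the remainder; glycolysis genes are left of the dotted line and hypoxia genes right of it. Higd1a and Slc2a1 varied mainly with treatment, and Bnip3, Pfkfb4 and P4ha2 almost wholly with set.

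Further genes of these pathways were read from the same fit. Of 22 other HIF targets, 19 were measured; 11 were higher under Ecrg4(71-132) than under Fc in both sets and 3 lower, where 28.5% and 36.4% of all genes were, with a median of 0.18, against -0.02 over all genes. Ak4, a mitochondrial adenylate kinase, was higher by 1.30 (0.59 and 2.003 in sets 1 and 2) and Hmox1, heme oxygenase, by 0.58 (0.47 and 0.70), whereas the chemokine receptor gene Cxcr4 was lower, at -0.90 (-0.92 and -0.88).

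Of 24 other genes of glycolysis and pyruvate, 20 were measured; 6 were higher and 10 lower in both sets, the first a share near that of all genes (28.5%; 36.4% lower), with a median of -0.05. Pfkfb2, a heart-type relative of Pfkfb3, differed by -0.70 (-0.43 and -0.97), Pdk2, a relative of Pdk1, by -0.60 (-0.53 and -0.67) and the hexose transporter gene Slc2a6 by 0.71 (0.05 and 1.36). Of 8 other genes of oxygen sensing 7 were measured, 2 higher and 3 lower, also read against 28.5% and 36.4% of all genes, and Arnt, the partner of Hif1a, differed by -0.25 (-0.24 and -0.25). All 7 genes of the pentose phosphate pathway, which makes NADPH, were measured, 0 higher and 2 lower (28.5% and 36.4% of all genes). None of these genes passed after adjustment in limma in any comparison of treatments, with or without the block.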

How the data were processed

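RNA of 8 samples was hybridised to one-colour arrays, 2 for each of 4 treatments. Per the submitters' processing notes, the authors read the arrays with Agilent Feature Extraction 11.0.1.1, and the deposited scanner files give each spot's intensity, linear and after background subtraction. The deposited table holds log2 values, each column being log2 of those intensities less a constant (column medians -4.49 to -4.21). How the authors set the constant is not stated there; the table served as an alternative.

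Each non-control spot's log2 intensity was taken relative to its array's 75th percentile. Spots of a probe were averaged, without those outlying on any array. Of 55681 probes, 28026 were named through unversioned RefSeq accessions (GRCm38.p6 gene table) and 27655 kept the name in the files. A probe was kept (25248) if a treatment had both arrays well above background, and the brightest stood for its gene. The test was limma 3.58.1 (R 4.3.3) on the 8 arrays, a mean for each treatment and 4 residual degrees of freedom, with Benjamini-Hochberg adjustment over 19118 genes and a threshold of 0.05; the script was tested on simulated data. The set difference came from a fit with treatment and set.

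The 4 arrays of a set share a slide column, and the set 1 minus set 2 differences of any pair of treatments correlated at 0.783 to 0.862 across genes. The set was therefore also fitted as a block, as a batch. Alternatives covered background correction (normexp on the median spot signal), scaling, filters, probe averaging, the deposited table and each array left out. The number of arrays limits the precision. Full values per array are given for the genes with the largest difference of Ecrg4(71-132) from Fc in each direction within each role. Slc16a3, Pfkp, Egln3, P4ha2 and Pfkfb4, and the genes named outside the 35, were added after their values were seen. The genes and lists were chosen with earlier results of these data known.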

Additional observations from a re-analysis of the deposited data

Results flagged for a closer look

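Of the 34 genes, 2 had both fragments on one side of both controls in set 1 and on the other side in set 2. For Hk1 the mean of the fragments minus the mean of Fc and PBS was 0.11 in set 1 and -0.22 in set 2, a difference of 0.334. For Plin2 it was 0.13 in set 1 and -0.28 in set 2, a difference of 0.404. The difference between the sets was not tested for either gene. Over all genes tested, 1044 of 19118 (5.46%) had this pattern.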

How the results depend on the processing

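No treatment difference of the 34 genes passed an adjusted p of 0.05 under any alternative, and the lowest adjusted p was 0.132, with the replicate block. That block, the set number, left all differences as they were and called 0 genes in every treatment comparison. The signs of these uncalled differences changed in 0 to 24 of 204 cases under the other processing alternatives and in 20 to 42 when an array was left out, where arrays of different sets are compared. For Fc against PBS, the median over glycolysis genes (0.034) was 0.007 under normexp, -0.01 under quantile normalization and 0.003 under median scaling. The median over hypoxia genes (-0.046) was -0.036 under normexp, -0.058 under quantile normalization, -0.076 under median scaling, -0.035 with no filter, -0.06 with the mean of probes and -0.037 in the deposited table. Quantile normalization left 3 members higher in both sets, against 10, and gave a glycolysis median of 0.011 for Ecrg4(133-148) against PBS, against 0.074.

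With each array left out in turn, the hypoxia median ran from -0.049 to 0.285 for Ecrg4(71-132) against Fc, -0.167 to 0.224 for Ecrg4(133-148) against Fc, -0.101 to 0.303 between the fragments, -0.226 to 0.258 for Fc against PBS, -0.204 to 0.318 for Ecrg4(71-132) against PBS and -0.205 to 0.253 for Ecrg4(133-148) against PBS. The glycolysis median ran from 0.051 to 0.108 for Ecrg4(133-148) against Fc, -0.04 to 0.065 between the fragments, -0.015 to 0.039 for Fc against PBS and 0.038 to 0.156 for Ecrg4(133-148) against PBS.

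Between the sets, 11331 genes passed, and 18657 with no filter, where more genes were tested. The glycolysis median (0.021) was 0.073 under normexp, 0.171 under quantile normalization and 0.061 under median scaling. Of the 16 members called, 11 passed in every alternative and 12 in every one that kept all 8 arrays. No called difference changed sign. The cause of these shifts was not tested.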
